A study of Mus musculus with 21 samples.

Results

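The fibroblast growth factor (FGF) and ERK pathway was followed through 10 of its genes in mouse embryonic stem cells (mESCs) that lacked or were depleted of accessory subunits of cohesin. The 10 genes were read by symbol from the count tables of all 21 RNA-seq libraries, out of 23412 genes listed, and all 10 passed the filter on low counts that kept 14963 genes for testing. They are the ligands *Fgf4*, *Fgf8* and *Fgf17*, the receptors *Fgfr1* and *Fgfr2*, the feedback inhibitors *Spry2*, *Spry4* and *Dusp6*, and the transcription factor targets *Etv4* and *Etv5*. The cells were v6.5 male mESCs grown on gelatin, and each of the 7 conditions had 3 libraries. Wild type cells received siGLO, a non-targeting siRNA, or siPds5b (WT siGLO and WT siPds5b). Cells without PDS5B received siGLO (Pds5b-KO siGLO), and cells without PDS5A received siGLO, siPds5b, siStag1 or siStag2 (Pds5a-KO siGLO, Pds5a-KO siPds5b, Pds5a-KO siStag1 and Pds5a-KO siStag2). Every well received 50 nM of siRNA and was harvested 48 h later. Each knockout was 1 CRISPR clone, so clone and genotype cannot be told apart, and the labels do not say whether the libraries of a condition were separate cultures.

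FGF ligands bind receptor tyrosine kinases on the cell surface and, through RAS and RAF, activate the kinases MEK and ERK. ERK activity induces ETS transcription factors such as ETV4 and ETV5 together with proteins that dampen the pathway again, including the Sprouty proteins and the ERK phosphatase DUSP6. In mESCs, FGF4 is an autocrine ligand that acts mainly through FGFR1 and prepares the cells for lineage commitment. FGFR2 is a receptor found in the trophectoderm and primitive endoderm. *Fgf8* and *Fgf17* are closely related ligands of the gastrulating embryo, where *Fgf8* is transcribed in the primitive streak. PDS5A and PDS5B are alternative subunits of cohesin, the ring complex that forms chromatin loops, and so are STAG1 and STAG2.

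Values are counts per gene scaled by TMM, a correction for library composition, to a mean library of 19816922 counted reads (normalized counts). Differences are log2 fold changes of the first condition named over the second with their standard error (SE), tested by edgeR's quasi-likelihood test, with Benjamini-Hochberg adjustment over all genes tested, and a gene is said to be called at an adjusted p under 0.01. Total counts per library were between 17311090 and 23989198. After their siRNAs, *Pds5b*, *Stag1* and *Stag2* stood at between 23.7% and 38.2% of their control means, *Pds5b* stood at 12.4% in the Pds5b-KO and *Pds5a* at 84.4% in the Pds5a-KO, whose edit at an exon near the start of the gene leaves most of the transcript to be counted, so that its level checks little. The stem cell markers *Pou5f1*, *Sox2* and *Nanog* were present in every library, and the 8 naive mESC markers summed to between 71893 and 78023 normalized counts in WT libraries and between 33540 and 58597 in knockout libraries. The libraries numbered 1 stood apart in part of the pathway: within its condition, the library numbered 1 was the lowest of 3 for *Fgf8*, *Fgf17* and *Fgfr1* in 6 of 7 conditions and the highest for *Etv4* in 7 of 7.

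The promoters of *Fgf4*, the most abundant member, and *Dusp6*, a feedback target of ERK, are shown, with an ETS motif marked where it was found, in *Dusp6* only. Promoter sequences from RefSeq (GRCm38.p6, the mm10 assembly) were matched for 5 of the 10 genes, and the 250 bases before the start of *Fgf4* (chr7:144861136-144861385, plus strand) and of *Dusp6* (chr10:99262981-99263230, plus strand) read 5′ to 3′ as follows, with the ETS motif in capitals.
Fgf4: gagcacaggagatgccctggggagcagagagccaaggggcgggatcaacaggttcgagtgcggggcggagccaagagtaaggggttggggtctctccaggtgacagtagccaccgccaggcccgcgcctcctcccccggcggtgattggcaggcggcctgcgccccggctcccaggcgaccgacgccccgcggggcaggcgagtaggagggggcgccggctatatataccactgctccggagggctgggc
Dusp6: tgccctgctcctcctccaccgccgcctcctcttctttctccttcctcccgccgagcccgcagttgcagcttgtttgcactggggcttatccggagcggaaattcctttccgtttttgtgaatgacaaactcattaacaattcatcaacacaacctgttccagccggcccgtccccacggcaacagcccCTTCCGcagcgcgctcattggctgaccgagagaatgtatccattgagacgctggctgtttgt
The motif searched was CGGAAG on either strand, CTTCCG in reverse, a form of the GGAA core that ETS factors such as ETV4 and ETV5 bind. Other GGAA cores, such as those in the *Dusp6* sequence, were not marked. The results below are for CGGAAG only. That motif was found at 1 position in the *Dusp6* sequence and not in these windows of the other 4 members matched, *Fgf4*, *Fgfr2*, *Spry2* and *Etv5*, while 13.6% of 32851 promoter windows of the same length held it.

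Per kilobase of exon, which allows genes to be compared, the mean level in WT siGLO was highest for *Fgf4* (1616 ± 221 normalized counts per kb, SD, n = 3) and lowest for *Fgfr2* (6.63 ± 1.61). *Etv5* (989.9 ± 55.2) and *Etv4* (914 ± 78.5) followed *Fgf4* and lay within their spread of each other. *Spry2* (676 ± 117), *Fgf8* (487 ± 314), *Dusp6* (480.0 ± 36.8) and *Fgf17* (414 ± 44.0) came next, and neighbours in that order did not differ beyond their spread.

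**Figure D1:**
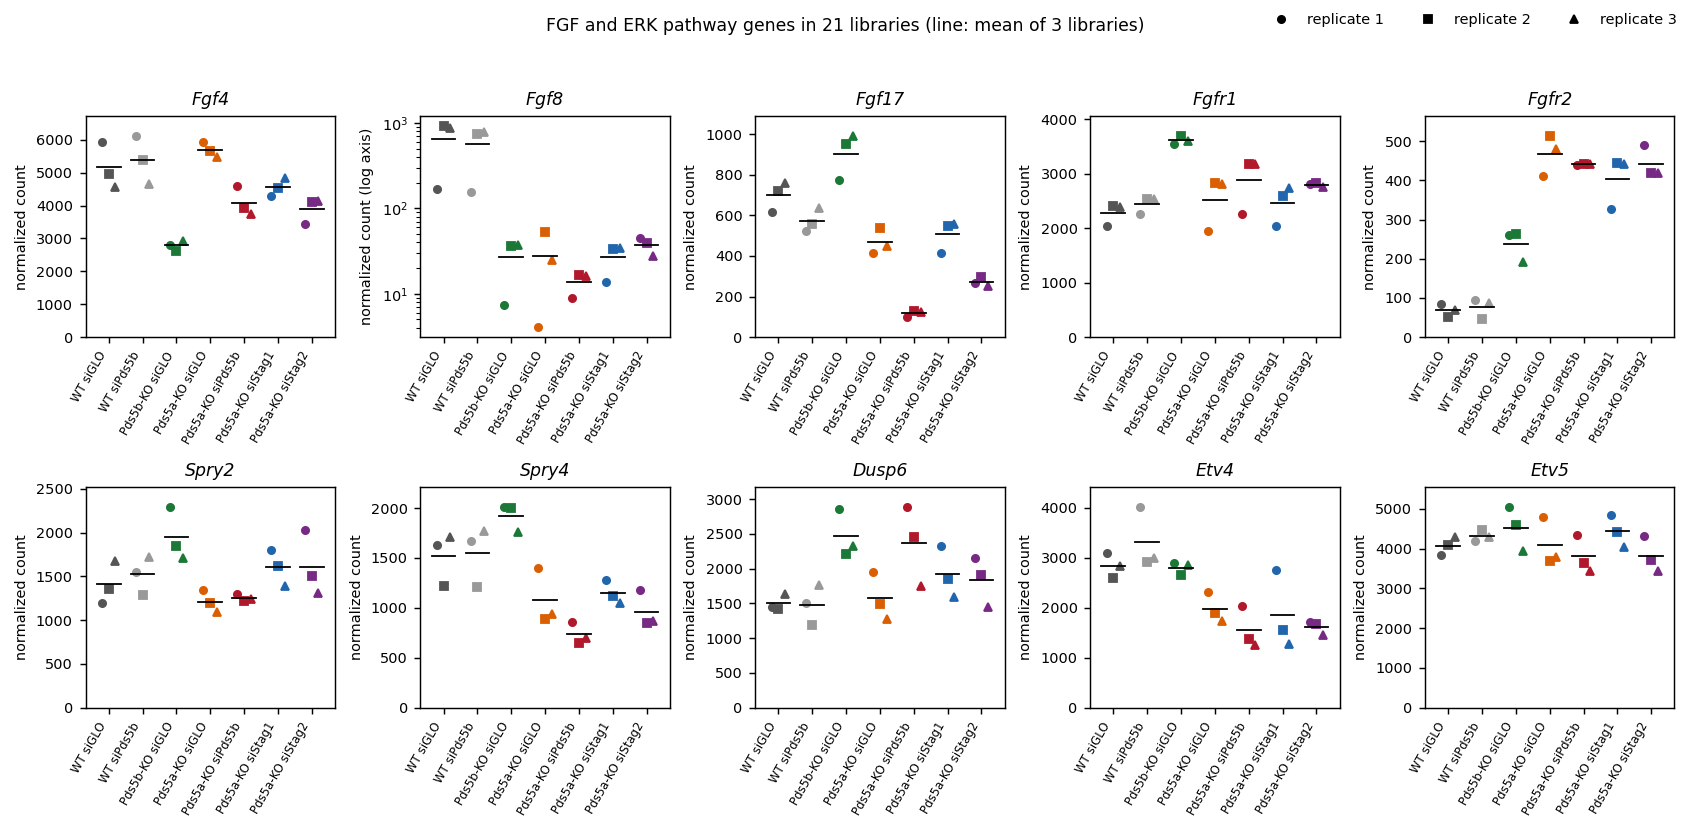
Normalized counts of the 10 genes in the 21 libraries, grouped by condition on the horizontal axis, with replicate number as point shape and a line at the mean of 3 libraries; the axis of *Fgf8* is logarithmic and the others start at 0. *Fgf8* lies at or below 53.3 in all 15 knockout libraries and at or above 158 in all 6 WT libraries, while *Fgfr2* lies at or below 94.8 in WT libraries and at or above 192 in knockout libraries.

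*Fgf8*, which lies on chromosome 19 from 45736798 to 45742915 on the minus strand, was the member with the largest difference between genotypes. In WT siGLO its normalized counts were 168, 921 and 882, and in WT siPds5b they were 158, 739 and 791, so the library numbered 1 was about as low in both conditions. In Pds5b-KO siGLO they were 7.39, 35.9 and 36.9. In Pds5a-KO siPds5b they were 8.88, 16.6 and 15.9. No knockout library reached the lowest WT library. *Fgf8* had drawn attention in the comparison of Pds5a-KO siGLO, where it stood at 4.06, 53.3 and 25.1, with WT siGLO, and that difference of -4.55 on the log2 scale (SE 0.81) is given as a description without a test. The comparison of Pds5a-KO siPds5b with WT siPds5b used none of those libraries, but it used the same Pds5a-KO clone and WT line. It is therefore no independent test of a gene picked there. In it *Fgf8* was 40.8-fold lower (log2 fold change -5.35, SE 0.90, adjusted p = 2.41e-04). In Pds5b-KO siGLO, which was compared with the same WT siGLO libraries, *Fgf8* was 24.1-fold lower (log2 fold change -4.59, SE 0.82, adjusted p = 7.12e-04), and with a model of only the 2 conditions compared the adjusted p was 0.0323. The difference between the knockouts was 0.05 on the log2 scale (SE 1.03), with an adjusted p of 0.979.

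Within Pds5a-KO cells, no siRNA moved *Fgf8* past the threshold. The log2 fold change was -1.03 (SE 1.16, adjusted p = 0.607) after siPds5b, -0.05 (SE 1.03, adjusted p = 0.993) after siStag1 and 0.41 (SE 0.99, adjusted p = 0.830) after siStag2, and these wide errors leave changes of several fold undetectable at counts this low. Without the 7 libraries numbered 1, an alternative chosen after the data were seen, the change after siPds5b was -1.27 with an adjusted p of 0.00962. In WT cells siPds5b gave -0.22 (SE 0.62, adjusted p = 1.00). Bulk RNA cannot separate fewer *Fgf8*-expressing cells from less *Fgf8* RNA per cell.

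Markers of the primitive streak and mesoderm, where *Fgf8* is transcribed in the embryo, had sums below WT siGLO in Pds5b-KO siGLO and Pds5a-KO siPds5b too. The 8 markers, of which 7 passed the low-count filter, summed to between 2609 and 3743 normalized counts in WT siGLO, 2235 and 3520.5 in WT siPds5b, 1730.1 and 2253 in Pds5b-KO siGLO and 1279 and 1699 in Pds5a-KO siPds5b, and in every condition the library numbered 1 had the lowest sum. Sums were 1448 to 2045 in Pds5a-KO siGLO, 1658 to 2604 in Pds5a-KO siStag1 and 2080 to 2330 in Pds5a-KO siStag2. The ranges after siStag1 and siStag2 overlapped that of WT siPds5b, and *Fgf8* was at or below 44.9 in those libraries. Of the 7 markers tested, 2 were called in Pds5a-KO siPds5b against WT siPds5b, near the share of 30.6% over all genes. Both were lower, *Eomes* (log2 fold change -1.20, adjusted p = 4.10e-04) and *Lefty2* (-0.82, adjusted p = 9.06e-04). *T*, the defining factor of the streak, had 74.8, 378 and 556 normalized counts in WT siGLO against 20.1, 74.8 and 68.9 in Pds5b-KO siGLO. The lowest WT siGLO library was thus at the level of the highest Pds5b-KO siGLO library, and these values of 1 marker are given as a description. *Mesp1* was at or below 9.01 in every library. The part of these cells in the result for *Fgf8* was not tested.

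**Figure D2:**
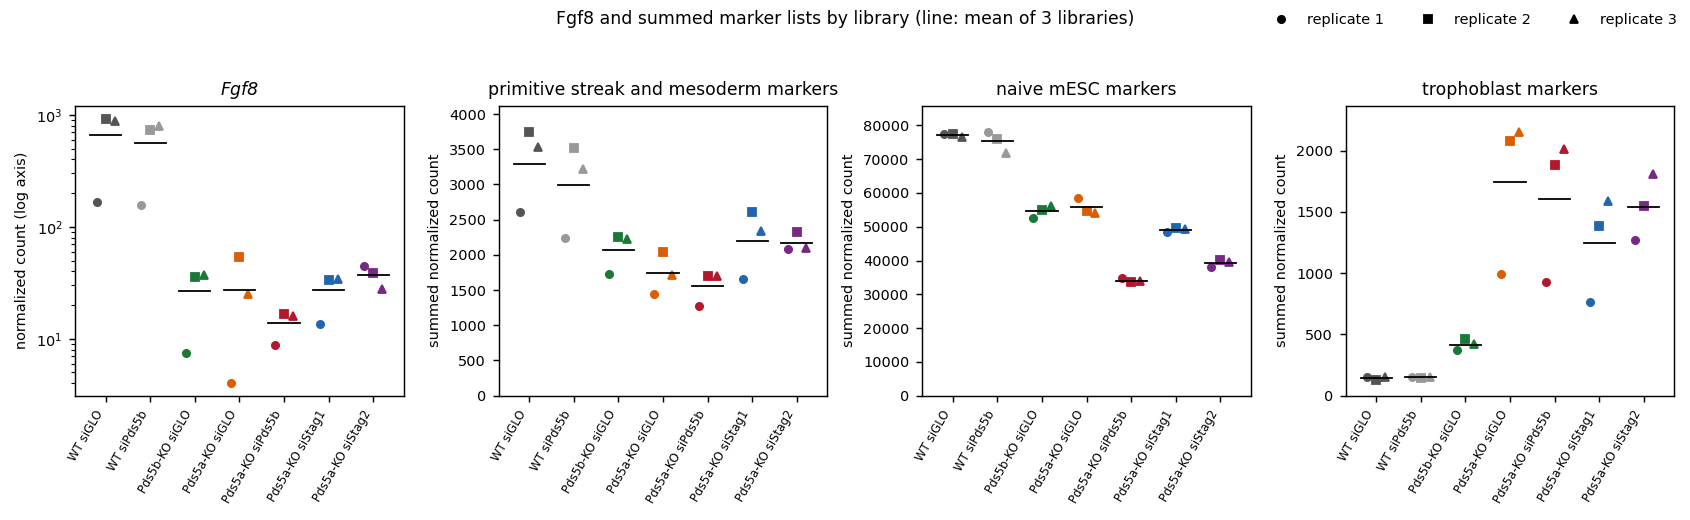
Normalized counts of *Fgf8* (logarithmic axis) and the summed normalized counts of the primitive streak and mesoderm, naive mESC and trophoblast marker lists, by condition, with replicate number as point shape and a line at the mean of 3 libraries. The library numbered 1 is the lowest of its condition for *Fgf8* in 6 of 7 conditions and for the streak list in 7 of 7.

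The genes whose level followed *Fgf8* most closely over the 21 libraries, on log2 CPM, were *Slc18b1* (Pearson's r = 0.952), *Ppp4r4* (0.951), *Pkdcc* (0.941), *Dhrs3* (0.938) and *Cd59a* (0.927), out of 12175 genes compared. The libraries fall into a WT and a knockout cluster, so these values describe the libraries and carry no test. Within the 6 WT libraries r was between 0.909 and 0.978 for the 5 genes. Within the 15 knockout libraries it was 0.854 for *Ppp4r4* and 0.201 for *Cd59a*. By Spearman's rho, 3 of the 5 stayed among the 5 most alike, and *Cd59a* ranked 106.

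*Fgf17*, on chromosome 14 from 70636203 to 70642268 on the minus strand, followed another course than *Fgf8*. In WT siGLO its normalized counts were 617, 721 and 761, and in WT siPds5b they were 523, 557 and 637. In Pds5b-KO siGLO they were 772, 950.1 and 989, all above the WT siGLO libraries (log2 fold change 0.37, SE 0.12), but this difference missed the threshold with an adjusted p of 0.0266. Without Pds5b-KO siGLO replicate 1 the adjusted p was 0.00903. In Pds5a-KO siGLO they were 412, 539 and 448, and siPds5b in these cells took them to 101, 127 and 124. Neither set overlaps the other, and *Fgf17* fell 3.98-fold (log2 fold change -1.99, SE 0.15, adjusted p = 2.06e-09). Against WT siPds5b the gene was 4.88-fold lower in Pds5a-KO siPds5b (log2 fold change -2.29, SE 0.15, adjusted p = 1.87e-11).

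The effect of siPds5b on *Fgf17* differed between the genotypes: its log2 change in Pds5a-KO cells minus that in WT cells (-0.29, SE 0.13) was -1.70 (SE 0.19, adjusted p = 1.50e-05). *Fgf17* was the single member called in that interaction (*Fgf4* joined it, at -0.66 and an adjusted p of 0.00760, without WT siGLO replicate 1), in which 1.48% of all genes tested were called, 0.896% lower. siStag2 also lowered *Fgf17* in Pds5a-KO cells, to 264, 297 and 254 (log2 fold change -0.78, SE 0.13, adjusted p = 0.00120), whereas after siStag1 it stood at 416, 548 and 555 (0.12, SE 0.13, adjusted p = 0.808). Compared directly, siStag2 gave lower *Fgf17* than siStag1 (log2 fold change -0.90, SE 0.13, adjusted p = 0.00121), the only member among the 0.394% of genes called between these siRNAs, of which 0.227% were lower after siStag2. Without Pds5a-KO siStag2 replicate 1 or replicate 3 that direct comparison was no longer called (adjusted p = 0.0113 without replicate 1). Leaving out Pds5a-KO siGLO replicate 2 or Pds5a-KO siStag2 replicate 1 took that of siStag2 against siGLO in Pds5a-KO cells to 0.0102 and 0.0109.

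*Fgf4*, the ligand with the highest level, lies on chromosome 7 from 144847367 to 144865243 on the plus strand, a span annotated with 2 transcripts. Its promoter, the first printed above, precedes the start in RefSeq and lies inside this span. Its normalized counts were 5944, 4971 and 4574 in WT siGLO and 5940.0, 5672 and 5481 in Pds5a-KO siGLO. In Pds5b-KO siGLO they were 2812, 2633 and 2915, below every library of the other 6 conditions. *Fgf4* was 1.85-fold lower in Pds5b-KO siGLO than in WT siGLO (log2 fold change -0.89, SE 0.10, adjusted p = 9.92e-07) and 2.04-fold higher in Pds5a-KO siGLO than in Pds5b-KO siGLO (log2 fold change 1.03, SE 0.10, adjusted p = 1.04e-07).

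siRNAs in Pds5a-KO cells lowered *Fgf4* by smaller amounts. It stood at 4583, 3937 and 3731 after siPds5b (log2 fold change -0.48, SE 0.10, adjusted p = 0.00221) and at 3425, 4123 and 4129 after siStag2 (-0.55, SE 0.10, adjusted p = 0.00250), while siStag1 gave 4298, 4546 and 4846 (-0.32, SE 0.10) with an adjusted p of 0.192. Markers of naive mESCs fell with it: 8 of 8 were called lower after siPds5b, 6 of 8 after siStag2 and 1 of 8, *Esrrb*, after siStag1, where 3.59%, 1.27% and 0.0802% of all genes were called lower. Between the siGLO conditions these markers and *Fgf4* did not always move together. Marker sums were 76588 to 77473 in WT siGLO, 53965 to 58597 in Pds5a-KO siGLO and 52739 to 56018 in Pds5b-KO siGLO. *Fgf4* averaged 5163, 5698 and 2787 normalized counts in these conditions, in that order. The part of the naive markers in the change of *Fgf4* was not tested. The calls for *Fgf4* in Pds5b-KO siGLO against WT siGLO and between the knockouts held under all 14 alternatives. Those after siPds5b and siStag2 in Pds5a-KO cells were lost without some single libraries. Their log2 fold changes stayed between -0.57 and -0.42 after siPds5b and between -0.59 and -0.44 after siStag2. Leaving out Pds5a-KO siGLO replicate 1 took the adjusted p to 0.0125 for siPds5b and 0.0143 for siStag2. Leaving out either of Pds5a-KO siPds5b replicates 2 and 3 took that for siPds5b to 0.0161 and 0.0177, and leaving out Pds5a-KO siGLO replicate 2 or Pds5a-KO siStag2 replicate 1 took that for siStag2 to 0.0102 and 0.0271. *Fgf4* was also 1.32-fold lower in Pds5a-KO siPds5b than in WT siPds5b (log2 fold change -0.40, SE 0.10, adjusted p = 0.00306), and the adjusted p was 0.0314 without WT siPds5b replicate 1, 0.0168 and 0.0228 without Pds5a-KO siPds5b replicates 2 and 3, and 0.0124 with a model of only the 2 conditions.

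Both receptors were higher in Pds5b-KO cells, and *Fgfr2* was higher in each knockout condition tested against WT. *Fgfr2* lies on chromosome 7 with its annotated transcripts on the minus strand between 130162451 and 133123350, a span that includes read-through transcripts sharing 314 exonic bases with *Ctbp2*. It had 85.1, 51.8 and 68.6 normalized counts in WT siGLO and 94.8, 46.9 and 86.1 in WT siPds5b. The values were 261, 262 and 192 in Pds5b-KO siGLO and 440.4, 441 and 443 in Pds5a-KO siPds5b. Every knockout library was above every WT library. *Fgfr2* was 5.79-fold higher in Pds5a-KO siPds5b than in WT siPds5b (log2 fold change 2.53, SE 0.20, adjusted p = 7.57e-10) and 3.43-fold higher in Pds5b-KO siGLO than in WT siGLO (log2 fold change 1.78, SE 0.20, adjusted p = 5.81e-07). It was also 1.96-fold higher in Pds5a-KO siGLO, at 410.4, 513 and 480.0, than in Pds5b-KO siGLO (log2 fold change 0.97, SE 0.17, adjusted p = 1.84e-04). Against WT siGLO, the values of Pds5a-KO siGLO lay 2.75 higher on the log2 scale (SE 0.19), given without a test.

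Within Pds5a-KO cells no siRNA moved *Fgfr2* past the threshold, with log2 fold changes of -0.08 (SE 0.17, adjusted p = 0.788) after siPds5b, -0.21 (SE 0.17, adjusted p = 0.700) after siStag1 and -0.08 (SE 0.17, adjusted p = 0.806) after siStag2. *Ctbp2*, with which some reads could be shared, was not called in Pds5a-KO siPds5b against WT siPds5b (log2 fold change 0.31, SE 0.14, adjusted p = 0.0815) or in Pds5b-KO siGLO against WT siGLO (0.42, SE 0.14, adjusted p = 0.0306). Trophoblast markers moved with *Fgfr2*. The 5 markers summed to between 127 and 156 normalized counts in the WT libraries, 371 and 463 in Pds5b-KO siGLO and 767 and 2150.3 in the Pds5a-KO conditions, and all 4 that passed the filter, *Cdx2*, *Gata3*, *Krt7* and *Hand1*, were called higher in Pds5a-KO siPds5b against WT siPds5b, where 16.3% of all genes were called higher. *Elf5*, a defining factor of trophoblast stem cells, was at or below 5.81 in every library. Within Pds5a-KO siPds5b the trophoblast sum was 928, 1881 and 2016 in the libraries where *Fgfr2* was 440.4, 441 and 443. Sums of the primitive endoderm markers did not separate knockout from WT libraries as *Fgfr2* did. They were 870 to 1485 in WT siGLO, 940 to 1869 in WT siPds5b and 1470 to 2678 in Pds5b-KO siGLO. In Pds5a-KO siPds5b they were 1003 to 1802, and in Pds5a-KO siStag2 811 to 885. The part of trophoblast-like or primitive endoderm-like cells in the level of *Fgfr2* was not tested.

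*Fgfr1*, on chromosome 8 from 25513654 to 25575718 on the plus strand, was the receptor with the higher level, and it changed less. It had 2033, 2417 and 2386 normalized counts in WT siGLO and 3552, 3689.8 and 3603 in Pds5b-KO siGLO, 1.59-fold higher (log2 fold change 0.67, SE 0.14, adjusted p = 0.00123). Of *Fgfr1*, 164 exonic bases overlap *Gm16159* on the opposite strand. In Pds5a-KO siPds5b it had 2265, 3187 and 3185, against 2269, 2535 and 2538 in WT siPds5b, and the groups overlapped (log2 fold change 0.23, SE 0.14, adjusted p = 0.178). Without the 7 libraries numbered 1 that difference was 0.33 with an adjusted p of 3.93e-04. Between the knockouts *Fgfr1* was 1.43-fold lower in Pds5a-KO siGLO, at 1943, 2836 and 2806 (log2 fold change -0.52, SE 0.14, adjusted p = 0.00754). Leaving out Pds5a-KO siGLO replicate 1 or any of Pds5b-KO siGLO replicates 1, 2 and 3 took that adjusted p to between 0.0134 and 0.0214. Scaling by library size only took it to 0.0115, and no filter on low counts to 0.0102.

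Among the feedback inhibitors, *Spry4*, on the minus strand of chromosome 18, had 1671, 1213 and 1771 normalized counts in WT siPds5b and 857, 652 and 703 in Pds5a-KO siPds5b, a 2.10-fold lower level with no overlap (log2 fold change -1.07, SE 0.19, adjusted p = 2.21e-04). Its values in Pds5b-KO siGLO were 2013, 1998 and 1761, all above the 1632, 1219 and 1713 of WT siGLO, though the adjusted p was 0.174. *Spry4* was 1.79-fold lower in Pds5a-KO siGLO than in Pds5b-KO siGLO (log2 fold change -0.84, SE 0.19, adjusted p = 0.00248). After siPds5b in Pds5a-KO cells its log2 fold change was -0.54 (SE 0.19, adjusted p = 0.0634), and blocking on replicate number gave -0.53 with an adjusted p of 0.00467.

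*Spry2*, on chromosome 14 from 105891947 to 105896819, was called by edgeR in the comparison of the knockouts, where Pds5a-KO siGLO, at 1345, 1199 and 1090.1, lay 1.61-fold below Pds5b-KO siGLO, at 2297, 1843 and 1716 (log2 fold change -0.69, SE 0.16, adjusted p = 0.00323). Against WT siGLO, *Spry2* in Pds5b-KO siGLO had a log2 fold change of 0.47 (SE 0.16) with an adjusted p of 0.0325, and DESeq2 called it (0.48, adjusted p = 0.00830). The call between the knockouts and that of *Spry4* were lost when Pds5a-KO siGLO replicate 2 (adjusted p = 0.0150 for *Spry2* and 0.0184 for *Spry4*), Pds5a-KO siGLO replicate 3 (0.0160 and 0.0146) or Pds5b-KO siGLO replicate 1 (0.0227 and 0.0125) was left out, and that of *Spry4* also without Pds5b-KO siGLO replicate 2 (0.0103). *Dusp6*, on chromosome 10 from 99263231 to 99267489, was called in no comparison with the edgeR model of all 21 libraries. It had 1455, 1420.5 and 1635 normalized counts in WT siGLO, 2854, 2213 and 2319 in Pds5b-KO siGLO and 2889, 2450.5 and 1755 in Pds5a-KO siPds5b. The log2 fold change was 0.71 (SE 0.21, adjusted p = 0.0196) in Pds5b-KO siGLO against WT siGLO and 0.67 (SE 0.21, adjusted p = 0.0185) in Pds5a-KO siPds5b against WT siPds5b. DESeq2, another count test, put the same differences at adjusted p values of 0.00568 and 0.00741, and for the first, edgeR with only the 2 conditions in the model gave 7.42e-05, so the call for *Dusp6* depends on the model. Without Pds5a-KO siPds5b replicate 3 the edgeR adjusted p of the second was 0.00600.

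The genes that followed *Dusp6* most closely over the 21 libraries were *Spred1* (Pearson's r = 0.915), *Eif5* (0.897), *Rai14* (0.879), *Zfp644* (0.871) and *Txnrd1* (0.867), given as a description, and 2 of these 5 were also among the 5 most alike by Spearman's rho. *Spred1* encodes another inhibitor of the RAS to ERK pathway. For *Spred1* r was 0.871 within the 6 WT libraries and 0.885 within the 15 knockout libraries.

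Of the ETS factors, *Etv4* was lower after dual depletion and *Etv5* was called in no comparison. *Etv4*, on chromosome 11 from 101769742 to 101785371 on the minus strand, had 4020.4, 2913 and 2993 normalized counts in WT siPds5b and 2031, 1366 and 1249 in Pds5a-KO siPds5b, 2.14-fold lower without overlap (log2 fold change -1.09, SE 0.24, adjusted p = 0.00183). The adjusted p was 0.0113 without WT siPds5b replicate 1, 0.0115 and 0.0134 without Pds5a-KO siPds5b replicates 2 and 3, and 0.0105 with a model of only the 2 conditions. In Pds5b-KO siGLO *Etv4* had 2891, 2646 and 2859, all within the range of WT siGLO at 3085, 2598 and 2829.7 (log2 fold change -0.02, SE 0.24, adjusted p = 0.959). *Etv5*, on chromosome 16 from 22381309 to 22439719 on the minus strand, gave log2 fold changes that lay between -0.22 and 0.16 with errors of 0.11 or, in the interaction, 0.15. Without the 7 libraries numbered 1 it was called in Pds5a-KO siPds5b against WT siPds5b, at -0.31 with an adjusted p of 0.00292. In WT siGLO it had 3827, 4078 and 4279 normalized counts, and in Pds5a-KO siPds5b 4332, 3643 and 3439.5, which overlap.

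**Figure D3:**
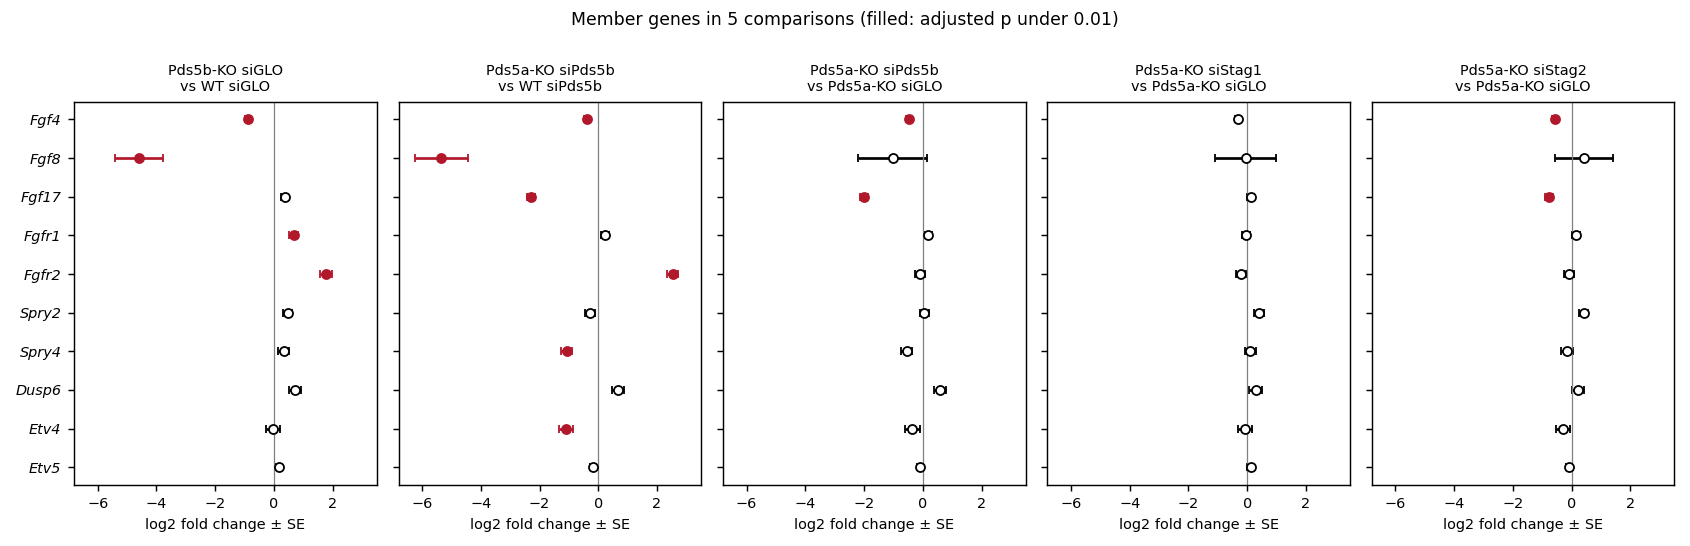
Log2 fold change of the 10 genes in 5 comparisons with its standard error as a bar, filled where the adjusted p was under 0.01. *Fgf8* reaches -5.35 and *Fgfr2* 2.53 in Pds5a-KO siPds5b against WT siPds5b, and no gene is filled after siStag1.

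The 10 members were chosen with earlier results of these data known, so the counts that follow are descriptions and carry no test against all genes. Counted over the 10 members, 6 were called in Pds5a-KO siPds5b against WT siPds5b, 1 higher and 5 lower, where 30.6% of all genes tested were called, 16.3% higher and 14.3% lower. In Pds5b-KO siGLO against WT siGLO 4 were called, 2 higher and 2 lower, beside 18.2% of all genes, 9.64% higher and 8.57% lower. In Pds5a-KO siGLO against Pds5b-KO siGLO 6 were called, 2 higher and 4 lower, beside 19.2%, 9.74% higher and 9.46% lower. siPds5b in Pds5a-KO cells gave 2, both lower, beside 7.59%, of which 3.59% were lower, and 3 were called when replicate number was blocked. siStag2 in Pds5a-KO cells gave 2, both lower, beside 2.24%, of which 1.27% were lower. siStag1 gave none with edgeR or DESeq2, beside 0.0936%, and 2 had an unadjusted p under 0.05, beside 10.7% of all genes. In Pds5a-KO siPds5b against WT siGLO, which shares libraries with the first of these comparisons and with the one given without a test, 6 were called, 1 higher and 5 lower, beside 32.0%, 17.4% higher and 14.6% lower. There *Fgf17* was -2.58 (SE 0.14), *Fgfr2* 2.67 (SE 0.19), *Spry4* -1.05 (SE 0.19), *Etv4* -0.87 (SE 0.24) and *Fgf4* -0.34 (SE 0.10) on the log2 scale. The call of *Fgf4*, at an adjusted p of 0.00950, was lost under RLE normalization (0.0106) and scaling by library size only (0.0140). It was also lost with only the conditions compared (0.0241) and with at least 10 counts required in every library (0.0140). Leaving out any of WT siGLO replicates 1 and 2 or Pds5a-KO siPds5b replicates 2 and 3 lost it too (0.0139 to 0.0881). That of *Etv4*, at 0.00807, was lost without any of WT siGLO replicates 1, 2 and 3 or Pds5a-KO siPds5b replicates 2 and 3, with adjusted p values between 0.0136 and 0.0442. With no filter on low counts it was lost as well (0.0127). *Fgfr1* was called there without Pds5a-KO siPds5b replicate 1 (0.00451). In WT cells siPds5b gave none with edgeR or DESeq2, beside 0.00668% of all genes, and 1 had an unadjusted p under 0.05, beside 4.22%. Over all genes, edgeR called 1 and DESeq2 4 there. Blocking on replicate number moved the count over all genes from 335 to 677 after siStag2, from 14 to 48 after siStag1 and from 1 to 3 after siPds5b in WT cells, with the members' counts as before.

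The rest of the pathway was read from lists of 87 further genes, of which 85 had a row in the count tables and 74 passed the filter. These lists, too, were chosen with earlier results of these data known, and their counts are descriptions. Named from them are the largest changes among genes called whose log2 CPM averaged at least 1 and whose libraries did not overlap, and *Shc1*, *Nras*, *Dusp4* and *Spry1* below, chosen after their values were seen. Of the 74, 30 (40.5%) were called in Pds5a-KO siPds5b against WT siPds5b, 22 higher and 8 lower, where 30.6% of all genes were called, 16.3% higher and 14.3% lower, and the median log2 fold change over the 74 was 0.28 beside -0.0024 over all genes. The RAS to ERK cascade, from adaptors to kinases, had 11 of 21 called, 9 higher and 2 lower, among them the adaptor *Shc1* (log2 fold change 0.58, SE 0.07, adjusted p = 2.79e-07) and, lower, *Nras* (-0.24, SE 0.06, adjusted p = 0.00258). Among the feedback inhibitors, members included, 7 of 17 were called, 6 higher and 1 lower, *Spry4*. *Dusp4*, a nuclear ERK phosphatase, rose from a mean of 435 to 1007 normalized counts (log2 fold change 1.21, SE 0.13, adjusted p = 7.63e-08), and *Spry1* from 251 to 405 (0.69, SE 0.11, adjusted p = 2.04e-05).

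Ligands, members included, had 8 of 14 called in Pds5a-KO siPds5b against WT siPds5b, 2 higher and 6 lower. Among all genes 30.6% were called there, 16.3% higher and 14.3% lower. Of the ligands called lower, *Fgf4*, *Fgf8* and *Fgf17* are members, chosen with earlier results known. The others lower were *Fgf1*, *Fgf3* and *Fgf15*, and those higher were *Fgf13* and *Fgf18*. *Fgf1*, a ligand of all FGF receptors, had 109, 58.0 and 84.9 normalized counts in WT siPds5b and 27.5, 21.8 and 12.0 in Pds5a-KO siPds5b (log2 fold change -2.03, SE 0.33, adjusted p = 3.24e-05). *Fgf3* went from 56.0, 84.8 and 54.0 to 43.5, 16.6 and 16.9 (-1.31, SE 0.31, adjusted p = 0.00163). That call was lost without any of WT siPds5b replicate 2 and Pds5a-KO siPds5b replicates 2 and 3 (0.0141 to 0.0144), and with only the conditions compared (0.0146). *Fgf13*, an intracellular relative that is not secreted, was higher, at 163, 224 and 176 against 67.2, 84.8 and 76.9 (1.30, SE 0.18, adjusted p = 2.99e-06). *Fgf5*, a marker of the primed epiblast, had the largest difference among the further genes in Pds5b-KO siGLO, at 13.7, 30.9 and 17.5 against 127, 264 and 316 in WT siGLO (-3.49, SE 0.45, adjusted p = 1.37e-05). The 5 primed epiblast markers together summed higher there, to between 9069 and 10489 normalized counts against 6091 and 8283 in WT siGLO, and besides *Fgf5* only *Dnmt3b* was called, higher (0.60, SE 0.15, adjusted p = 0.00669). In that comparison 17 of the 74 further genes were called, 16 higher and 1 lower, *Fgf5*, beside 18.2% of all genes, 9.64% higher and 8.57% lower. Besides *Fgf5*, *Dusp4* (0.97, SE 0.13, adjusted p = 4.60e-06) and the immediate early factor *Egr1* (0.95, SE 0.17, adjusted p = 2.22e-04) had the largest differences with no overlap.

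Between the knockouts, 9 of the 74 were called, 3 higher and 6 lower in Pds5a-KO siGLO, where 19.2% of all genes were called. *Fgf1* (-1.43, SE 0.32, adjusted p = 0.00147), *Etv1* (-0.85, SE 0.20, adjusted p = 0.00387), an ETS factor related to ETV4 and ETV5, and the immediate early gene *Ier2* (-0.83, SE 0.11, adjusted p = 6.60e-06) were the largest by that rule. The call of *Etv1* was lost without Pds5a-KO siGLO replicate 2 or 3 or Pds5b-KO siGLO replicate 1 (0.0187 to 0.0263). siPds5b in Pds5a-KO cells called 8, 7 higher and 1 lower, beside 7.59% of all genes. *Egr2* (2.38, SE 0.46, adjusted p = 8.38e-04) and *Fgf18* (1.83, SE 0.37, adjusted p = 0.00128) had the largest changes but lay below that level, and above it came *Fgf13* (1.04, SE 0.17, adjusted p = 1.73e-04), *Etv1* (1.01, SE 0.20, adjusted p = 0.00203) and *Dusp4* (0.62, SE 0.12, adjusted p = 0.00126). There *Etv1* was lost without Pds5a-KO siGLO replicate 2 or 3 or Pds5a-KO siPds5b replicate 1 (0.0114 to 0.0155), and *Dusp4* without Pds5a-KO siGLO replicate 3 (0.0101). siStag2 called 1, beside 2.24% of all genes, *Shc1*, at 4692, 5235 and 5447 against 4144, 4155 and 4249 (0.29, SE 0.07, adjusted p = 0.00977). That call was lost without any 1 of 5 of these 6 libraries, Pds5a-KO siStag2 replicate 1 excepted (0.0155 to 0.0453). It was also lost with a model of only the conditions compared (0.0752), with no filter on low counts (0.0143) and under RLE normalization (0.0101). siStag1 called none with edgeR, beside 0.0936% of all genes, and 1 with DESeq2. An unadjusted p under 0.05 was reached by 8 of the 74, near the share of 10.7% over all genes. In Pds5a-KO siPds5b against WT siGLO 27 were called, 19 higher and 8 lower, beside 32.0% of all genes, with *Fgf1* (-1.70, SE 0.33), *Fgf15* (-1.68, SE 0.25) and *Fgf5* (-1.63, SE 0.38) the largest by the same rule. That of *Fgf5* was lost without WT siGLO replicate 3 or Pds5a-KO siPds5b replicate 2 or 3 (0.0119 to 0.0139). The interaction called 1 further gene, beside 1.48% of all genes. It was *Fgf18* (2.64, SE 0.57, adjusted p = 0.00780), named here because the count is that low.

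**Figure D4:**
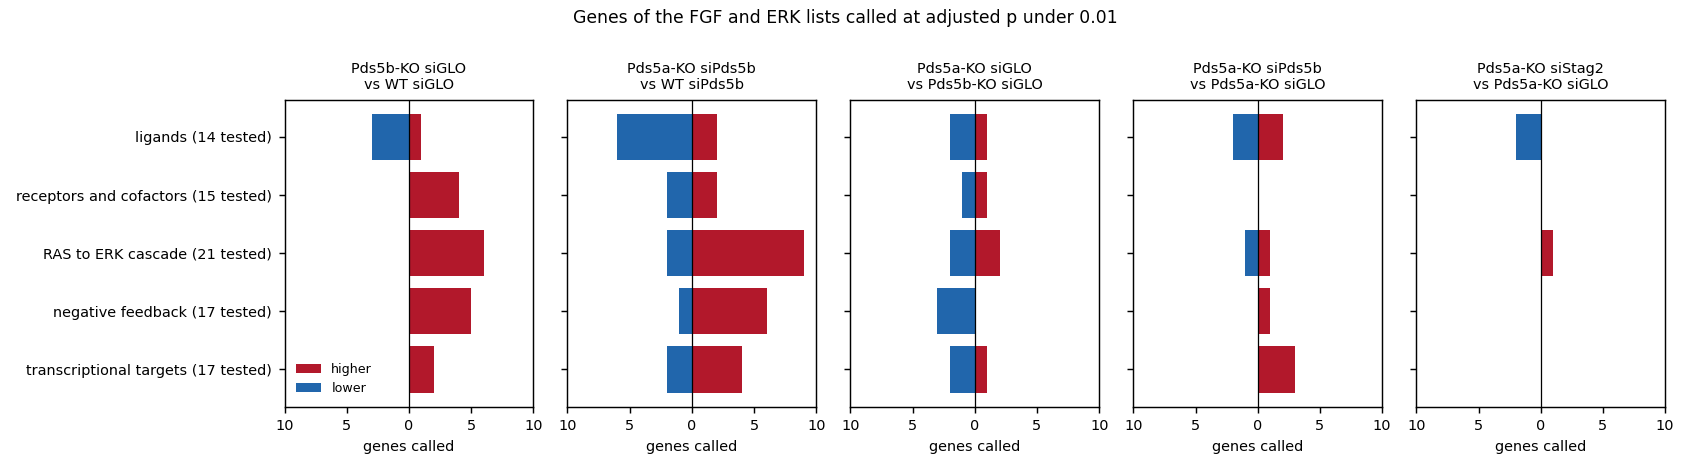
Number of genes of each pathway list, members included, called higher (right) or lower (left) at an adjusted p under 0.01 in 5 comparisons; the number tested stands beside each list. In Pds5a-KO siPds5b against WT siPds5b the RAS to ERK cascade has 9 higher and 2 lower and the ligands 2 higher and 6 lower. The lower ligands include the members *Fgf4*, *Fgf8* and *Fgf17*. Of all genes, 16.3% were called higher and 14.3% lower there.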

How the data were processed

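RNA-seq was measured in 21 libraries of mESCs, 3 in each of 7 conditions taken from the labels. Poly-A libraries were sequenced as 150 bp paired-end reads, the submitters' processing notes name STAR, DESeq2 and mm10, and the authors deposited raw counts per gene symbol for each library. The counting tool, gene annotation and use of strand are not given in the sources used here, and reads of a gene and of genes overlapping it cannot be told apart.

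Counts were tested with edgeR 4.0.16 in R 4.3.3 (filterByExpr, TMM, robust quasi-likelihood F test, 1 mean per condition over all 21 libraries), with Benjamini-Hochberg adjustment over 14963 genes and calls at an adjusted p under 0.01. This replaces DESeq2, used in the study, which was an alternative (1.42.0). Standard errors are the size of the log2 fold change divided by the square root of F. Total counts per library had a median of 19628146. P-values measure the spread between these libraries only. The script for the test was checked on simulated counts.

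The 10 genes and the lists were chosen with earlier results of these data known. Named besides the 10 were, per comparison, up to 3 called list genes by size of change, among those whose log2 CPM averaged 1 or more and whose libraries did not overlap between conditions. A gene of the lists is not reported here. The 5 genes most like *Fgf8* and *Dusp6* were named by Pearson correlation of log2 CPM (prior count 2). Positions and exon lengths came from GENCODE M21.

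No reported test had a block for replicate number, which was an alternative. The numbers were taken to pair libraries where each pair's deviations from the condition means correlated above 0.1, as for siPds5b in WT cells (lowest 0.345) and siPds5b, siStag1 and siStag2 in Pds5a-KO cells (lowest 0.331, 0.155 and 0.140). The number comes from the labels, which do not say what it marks. Figures were drawn with matplotlib 3.10.9 in Python 3.11.15.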

Additional observations from a re-analysis of the deposited data

Results flagged for a closer look

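The effect of siPds5b on *Fgf17* differed between genotypes by a test of the difference itself. The log2 change in Pds5a-KO cells minus that in WT cells was -1.70 (SE 0.19, edgeR adjusted p = 1.50e-05), from -1.99 (SE 0.15) and -0.29 (SE 0.13). The 3 Pds5a-KO siPds5b libraries, at 101, 127 and 124 normalized counts, were below all 18 others, of which the lowest had 254. In the same interaction 5 of 8 naive mESC markers were called, all lower, beside 0.896% of all genes called lower, and their part in the difference for *Fgf17* was not tested.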

How the results depend on the processing

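Every comparison was recomputed with DESeq2, other scalings and filters, models restricted to the conditions in question, a block for replicate number, and each library left out, and no call reversed. Differences that were not called could change sign. That of *Fgf8* between the knockouts ranged from -0.88 to 0.52 on the log2 scale, and that of *Etv4* after siStag1 in Pds5a-KO cells from -0.48 to 0.12. Of 28 calls of the 10 genes, 16 held under each alternative that kept the gene, among them *Fgf17*, *Fgfr2* and *Fgf8* in Pds5a-KO siPds5b against WT siPds5b (*Fgf8* did not pass the filter of at least 10 counts in every library), and 12 were lost under some. Of the differences not called, 14 were called by some alternative. The count of genes called in the interaction was 222, and 421 with DESeq2, 389 with the block, 134 with only the conditions compared and 121 to 232 without a library. Scaled by library size only, 104 of 207 were higher there, against 88 of 222. For siStag2 in Pds5a-KO cells it was 335, then 770, 677, 99 and 68 to 375. For siStag1 it was 14, then 74, 48, 8 and 4 to 14, and 101 without the 7 libraries numbered 1, a choice made after seeing the data. For siStag2 against siStag1 it was 59, then 275, 276, 93 and 6 to 18, and 139 without those 7. For siPds5b in WT cells it was 1, then 4, 3 and 2, also 2 with no filter and 7 without those 7. With only the conditions compared, siPds5b in Pds5a-KO cells gave 524 in place of 1136 and the comparison of the knockouts 1810 in place of 2873. Without a library these were 689 to 946 and 1722 to 2683, and Pds5b-KO siGLO against WT siGLO gave 1704 to 2611. Counts moved by over 1.5 times without Pds5a-KO siGLO replicate 2 in 5 of these comparisons (143 in the interaction, 1722 between the knockouts, 689 for siPds5b, 4 for siStag1 and 128 for siStag2), Pds5a-KO siGLO replicate 1 (115 for siStag2), Pds5a-KO siPds5b replicate 2 (122 in the interaction and 710 for siPds5b), WT siGLO replicates 2 and 3 (137 and 121 in the interaction), WT siPds5b replicate 1 (136 there), Pds5b-KO siGLO replicates 1 and 2 (1837 and 1904 between the knockouts, and 1704 for replicate 2 against WT siGLO), Pds5a-KO siStag1 replicates 1 and 2 (6 and 5), Pds5a-KO siStag2 replicates 1 and 3 (68 and 158) and, for siStag2 against siStag1, any of the 6 libraries. Of the 10 genes, the number called without a library was 1 to 2 in the interaction (2 without WT siGLO replicate 1), 3 to 5 between the knockouts (3 without Pds5b-KO siGLO replicate 1), 1 to 2 for siPds5b, 0 to 2 for siStag2 and 0 to 1 for siStag2 against siStag1, and without the 7 libraries numbered 1 it was 2 in the interaction and 4 for siPds5b in Pds5a-KO cells. Where the replicate numbers pair the libraries, the block added 1 call among the 10 genes, *Spry4* after siPds5b in Pds5a-KO cells, and changed no other. The remaining comparisons did not meet the rule for pairing, and what their same-numbered libraries share is not known. As a hint from the data, 2 or 5 of 6 libraries correlated best with their own number. It was 5 of 6 in Pds5b-KO siGLO against WT siGLO, where the lowest same-number correlation was 0.0836. In these comparisons the block added *Dusp6* in 4 (adjusted p between 0.00520 and 0.00709). It also added *Fgf17* in Pds5b-KO siGLO against WT siGLO (0.00253) and *Fgfr1* in Pds5a-KO siPds5b against WT siGLO (0.00343). Without the 7 libraries numbered 1, *Etv4* was called between the knockouts (2.91e-05) and after siPds5b in Pds5a-KO cells (0.00168). The causes were not tested. At 4.06 to 53.3 normalized counts in knockout libraries, depth limits what can be seen of *Fgf8* there.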
